A study of Homo sapiens with 16 samples.

Results

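The mevalonate pathway builds isoprenoids and the sterol precursor from acetyl-CoA. Expression of 8 of its enzymes was followed in human A549 lung cancer cells given 1 of 3 small molecules or the solvent DMSO. The genes were ACAT2, HMGCS1, MVK, PMVK, MVD, IDI1, FDPS and GGPS1. They were taken by gene name from the deposited gene abundance tables, which list 39576 gene names, and all 8 were found in all 16 libraries. Values of a name listed at several places were added. All 8 also passed the filter on low values, a TPM of 1 or more in 2 or more libraries, which 15285 genes passed.

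The pathway starts in the cytosol. ACAT2, a cytosolic thiolase that is not the cholesterol-esterifying enzyme sometimes given the same short name, joins acetyl-CoA units to acetoacetyl-CoA. HMGCS1, the cytosolic HMG-CoA synthase, adds a further acetyl unit, and its product is carried on to mevalonate. The mevalonate kinase MVK and the phosphomevalonate kinase PMVK phosphorylate mevalonate in turn, and the decarboxylase MVD turns the product into isopentenyl pyrophosphate, the isoprene building block. IDI1 interconverts this block with its isomer, FDPS joins blocks to farnesyl pyrophosphate, and GGPS1 extends that to geranylgeranyl pyrophosphate. Farnesyl pyrophosphate feeds sterol synthesis, and both pyrophosphates are used to prenylate proteins and to make dolichol and ubiquinone. In mammalian cells many genes of the pathway are transcribed under SREBP-2, a transcription factor that is released from the endoplasmic reticulum when sterols are low. SREBP-2 is known to act together with NF-Y, which binds CCAAT boxes.

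All libraries came from A549 cells, a lung adenocarcinoma line, that overexpressed CD63-Nluc, in which CD63, a tetraspanin of exosome membranes, is joined to a luciferase, so the DMSO cells carried the reporter too. The 6 compound groups were 5G6 for 4 h and for 48 h, 6D7 for 4 h and for 48 h, and 7F8 for 4 h and for 48 h, each set against DMSO of the same hour. A dose of 4 µM is printed for all treatments, even for DMSO, and the labels give the compounds by code name alone. Each of the 8 groups held 2 libraries, called biological replicates in the series description, with no word on separate cultures, so the p-values speak of the spread among these libraries only. Exosome release, the energy-sensing kinase AMPK and SREBPs are the subjects named in the series title.

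Libraries held 6.10 to 8.86 aligned gigabases, with 13013 to 14568 genes at a TPM of 1 or more. The mitochondrial tRNA gene TRNC was listed at 0 in both 6D7 libraries of 48 h and took 15.3 to 28.6 percent of all TPM in the other 14. TPM adds up to the same total in every library, so the level of every other gene on the TPM scale depends on that share. The median log2 fold change of all tested genes against DMSO was 0.29 for 6D7 and -0.21 for 7F8 at 48 h, and 0.13 for 5G6 and -0.10 for 7F8 at 4 h. After median-of-ratios scaling, which sets each library by its typical gene, these medians lay between -0.014 and 0.0061, and values after that scaling are given beside the others where a named gene's call against DMSO differs. Of 8 genes typical of A549 cells, the keratins KRT8 and KRT18, the aldo-keto reductases AKR1B10, AKR1C1 and AKR1C2 and the aldehyde dehydrogenase ALDH1A1 had at least 171 TPM in each library. Keratin KRT19 ran from 11.3 to 329 TPM and the epithelial adhesion gene EPCAM from 0.254 to 8.33 TPM. The alveolar type 2 genes SFTPB, SFTPC and NKX2-1, which define the cell type the line is often likened to, did not exceed 0.424 TPM. Of 11 marker genes of blood, endothelium, fibroblast and muscle cells, 9 stayed under 1 TPM, while CD14 reached 8.00 TPM and COL1A1 14.4 TPM.

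RefSeq start sites (GRCh38.p14) gave 12 promoter windows for 7 of the 8 genes, each of 300 bases, from 250 before the start site to 50 after it. The windows below belong to 5 genes that rose at 48 h and to PMVK and GGPS1, which did not pass the test, so that both kinds can be read side by side. Where a gene had several windows, the one nearest to its deposited start is shown. Letters are in the direction of the gene, 5′ to 3′, and capitals mark CCAAT on either strand (ATTGG where it lies on the opposite strand) and TCACNCCA, a sterol regulatory element without its last base. HMGCS1 spans chr5:43313363-43313662, minus strand. MVK spans chr12:109573544-109573843, plus strand. MVD spans chr16:88663042-88663341, minus strand. IDI1 spans chr10:1056655-1056954, minus strand. FDPS spans chr1:155308616-155308915, plus strand. GGPS1 spans chr1:235328320-235328619, plus strand. PMVK spans chr1:154936670-154936969, minus strand, and this RefSeq start lies 5970 bases inside the deposited gene.
HMGCS1: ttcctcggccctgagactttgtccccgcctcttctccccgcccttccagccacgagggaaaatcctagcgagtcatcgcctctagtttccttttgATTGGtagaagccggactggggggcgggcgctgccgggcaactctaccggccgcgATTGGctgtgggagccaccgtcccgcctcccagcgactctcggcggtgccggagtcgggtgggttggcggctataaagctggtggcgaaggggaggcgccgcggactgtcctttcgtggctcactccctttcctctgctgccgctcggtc
MVK: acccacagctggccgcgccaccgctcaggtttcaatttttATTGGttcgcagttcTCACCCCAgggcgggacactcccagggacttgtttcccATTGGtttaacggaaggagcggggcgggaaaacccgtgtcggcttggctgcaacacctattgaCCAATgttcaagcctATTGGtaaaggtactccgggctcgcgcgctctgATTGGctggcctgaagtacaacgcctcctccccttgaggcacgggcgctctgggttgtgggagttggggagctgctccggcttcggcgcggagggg
MVD: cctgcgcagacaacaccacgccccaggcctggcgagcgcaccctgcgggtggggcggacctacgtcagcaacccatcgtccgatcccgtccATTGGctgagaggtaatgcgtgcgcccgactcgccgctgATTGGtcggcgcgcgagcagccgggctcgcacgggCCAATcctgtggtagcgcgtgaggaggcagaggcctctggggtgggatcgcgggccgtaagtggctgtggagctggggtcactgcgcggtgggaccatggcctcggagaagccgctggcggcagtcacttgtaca
IDI1: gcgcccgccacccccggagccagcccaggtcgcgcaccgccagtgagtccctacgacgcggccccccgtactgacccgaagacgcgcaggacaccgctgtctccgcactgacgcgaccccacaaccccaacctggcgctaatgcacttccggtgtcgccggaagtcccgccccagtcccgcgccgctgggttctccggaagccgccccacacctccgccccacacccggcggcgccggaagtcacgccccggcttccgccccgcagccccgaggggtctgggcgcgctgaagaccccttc
FDPS: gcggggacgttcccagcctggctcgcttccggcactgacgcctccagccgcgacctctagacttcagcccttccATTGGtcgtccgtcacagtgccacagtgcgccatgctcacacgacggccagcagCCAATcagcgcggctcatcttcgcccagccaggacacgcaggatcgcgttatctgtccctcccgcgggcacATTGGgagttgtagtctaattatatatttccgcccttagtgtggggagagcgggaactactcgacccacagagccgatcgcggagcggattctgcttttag
GGPS1: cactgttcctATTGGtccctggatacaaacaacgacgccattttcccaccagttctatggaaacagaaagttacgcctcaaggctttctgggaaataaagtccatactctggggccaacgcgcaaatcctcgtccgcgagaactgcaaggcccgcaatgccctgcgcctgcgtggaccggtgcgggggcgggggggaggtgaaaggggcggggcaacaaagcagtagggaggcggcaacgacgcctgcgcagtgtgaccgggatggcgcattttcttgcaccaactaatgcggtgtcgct
PMVK: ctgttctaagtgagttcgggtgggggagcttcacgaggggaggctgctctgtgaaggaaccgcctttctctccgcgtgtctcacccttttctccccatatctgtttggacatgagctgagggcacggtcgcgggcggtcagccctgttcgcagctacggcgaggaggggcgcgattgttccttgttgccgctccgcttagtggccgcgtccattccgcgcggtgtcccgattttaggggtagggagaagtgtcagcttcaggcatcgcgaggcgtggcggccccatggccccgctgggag

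The CCAAT letters occurred 5 times in the MVK window, 3 times each in MVD and FDPS, 2 times in HMGCS1, 1 time in GGPS1 and 0 times in PMVK. IDI1 had 3 windows, with 0 matches in the one shown and 3 and 2 in the others, and in the window with 3 a pair of them overlapped on opposite strands. The other HMGCS1 window and the other 2 GGPS1 windows held none. Among 35116 RefSeq windows of the same length, 34.6 percent held CCAAT at least 1 time, 10.8 percent at least 2 times and 3.26 percent at least 3 times. The fuller sterol regulatory element TCACNCCAC, searched on both strands, was in none of the 12 windows and in 1.13 percent of all windows. Its shorter form TCACNCCA was in MVK alone, with its first base 195 bases before the start, and in 3.95 percent of all windows. The GC box GGGCGG, sought on both strands, was in all but 1 of the 12 windows, a GGPS1 window, and in 45.0 percent of all windows. These letters were searched with the sequences and the expression values in view. A match describes letters in a window and says nothing of a factor bound there.

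**Figure D1:**
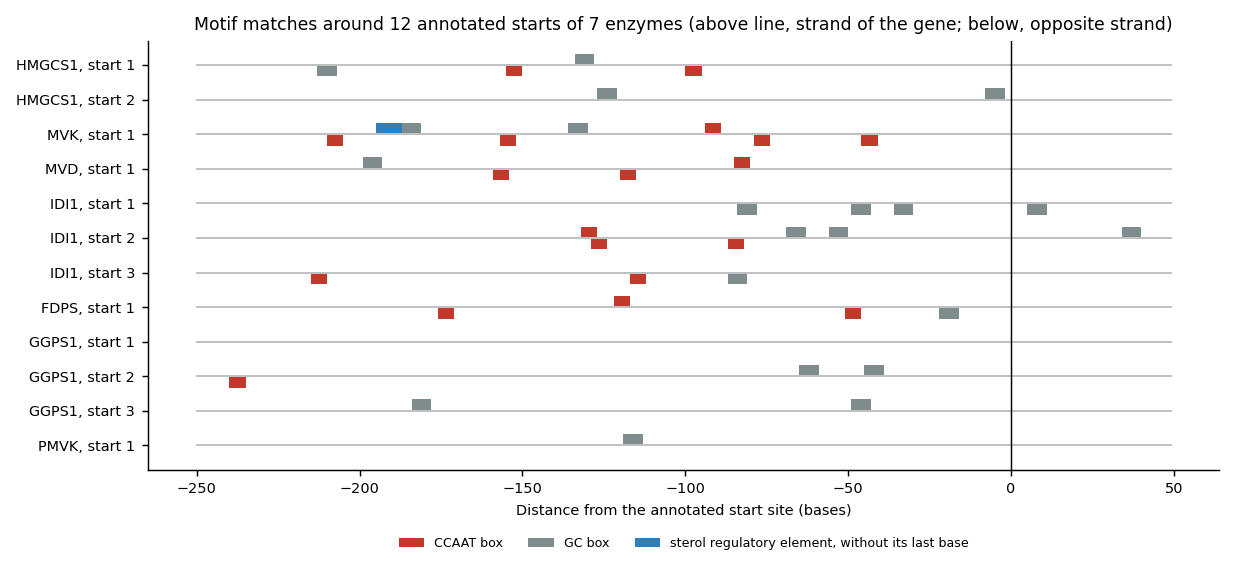
Position of motif matches in the promoter windows, in bases from the RefSeq start site (x axis), with 1 line for each of the 12 windows (y axis) and a colour for each kind of motif. CCAAT matches number 5 in MVK and 3 each in MVD and FDPS, and none is seen in PMVK, in the IDI1 window nearest the deposited start, in 1 HMGCS1 window and in 2 GGPS1 windows.

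At 48 h the same 6 genes rose under 5G6 and under 6D7. ACAT2, HMGCS1, MVK, MVD, IDI1 and FDPS were called higher against DMSO, by 3.70-fold (MVK) to 9.30-fold (MVD) under 5G6 and by 4.00-fold (MVK) to 8.10-fold (MVD) under 6D7. PMVK and GGPS1 did not pass the test with either compound. Under 7F8 none of the 8 passed it at 48 h, and its libraries disagreed with each other. At 4 h no gene of the 8 passed the test with any compound, although both 5G6 libraries lay above both DMSO libraries for 6 of them, as for 26.9 percent of tested genes, and both 6D7 libraries did for 6, as for 16.1 percent. Fold changes are of TPM + 1, and calls were made at an adjusted p below 0.05 (Benjamini-Hochberg) in a limma fit over the 15285 tested genes.

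Against the rest of the transcriptome, the 6 of 8 genes called higher under 5G6 at 48 h compare with 1.87 percent of all tested genes called higher and 3.38 percent called in either direction. For 6D7 at 48 h, 6 of 8 compare with 10.9 percent called higher and 12.4 percent called in all. For 7F8 at 48 h, 0 of 8 were called by limma, against 8.49 percent of tested genes, and 3 of 8 had an unadjusted p below 0.05, against 24.9 percent. The median log2 fold change of the 8 was 2.38 under 5G6, 2.20 under 6D7 and 0.46 under 7F8, and that of all tested genes -0.068, 0.29 and -0.21 in the same order. The 3 comparisons share the DMSO libraries. The summed TPM of 11 markers of other cell types at 48 h was 7.93 and 6.63 under 5G6, 6.77 and 7.62 under 6D7 and 16.9 and 9.32 under 7F8, against 18.9 and 11.5 in DMSO. That of 8 genes typical of A549 was 8943 and 12318 TPM under 5G6, 6069 and 16493 under 6D7 and 6072 and 7391 under 7F8, against 13989 and 16519 TPM in DMSO. These 8 did not all move alike. KRT19 had 198 and 281 TPM under 5G6, 247 and 329 under 6D7 and 11.3 and 27.4 under 7F8, against 25.9 and 57.4 in DMSO. EPCAM had 1.05 and 1.43 TPM under 5G6, 1.92 and 3.34 under 6D7 and 0.254 and 0.548 under 7F8, against 5.31 and 5.57 in DMSO. The part of these shifts in the results was not tested. In whole-culture RNA, a change in the number of expressing cells and a change in RNA per cell cannot be told apart.

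**Figure D2:**
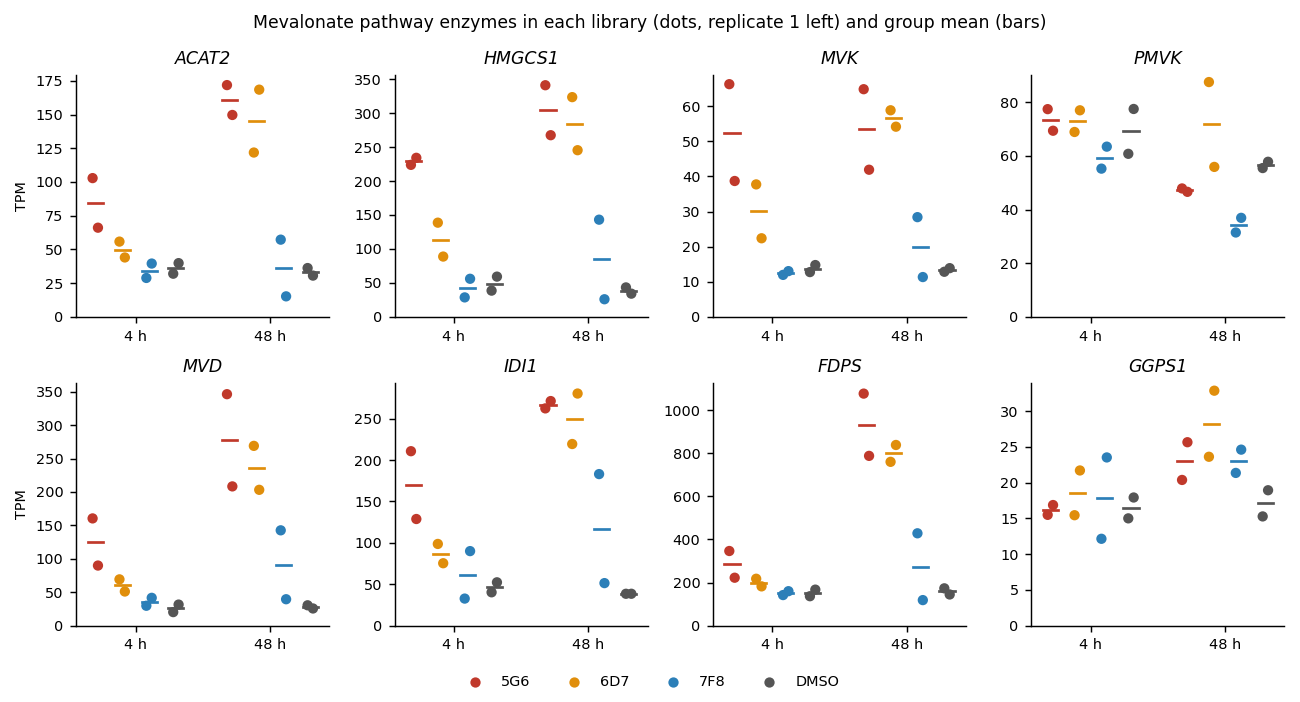
TPM of each gene (1 panel a gene, y axis from 0) in the 16 libraries, by hour on the x axis and compound by colour, with DMSO last, each dot 1 library and each bar a group mean. In 6 panels the 5G6 and 6D7 libraries of 48 h sit well above DMSO, and the 7F8 libraries of 48 h lie far apart. PMVK and GGPS1 move less under 5G6 and 6D7. At 48 h PMVK lies below DMSO under 5G6 and 7F8, and GGPS1 lies above DMSO under each compound.

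ACAT2 (chr6:159761957-159779112, on the plus strand) supplies acetoacetyl-CoA. At 4 h ACAT2 stood at 103 and 66.1 TPM under 5G6, 55.8 and 44.1 under 6D7 and 28.9 and 39.6 under 7F8, against 32.0 and 39.9 TPM in DMSO. Both 5G6 and both 6D7 libraries lay above both DMSO libraries, while 7F8 overlapped them. At 48 h it stood at 172 and 149.7 TPM under 5G6, 122 and 168 under 6D7 and 57.3 and 15.2 under 7F8, against 36.2 and 30.6 TPM in DMSO. The 5G6 and 6D7 libraries were far above DMSO, and the 7F8 pair had one library above and one below it. The log2 fold change at 48 h was 2.23 ± 0.46 (SE) under 5G6 (limma adjusted p = 0.0255) and 2.07 ± 0.46 under 6D7 (adjusted p = 0.0157). After median-of-ratios scaling the 6D7 value was 1.73 with an adjusted p of 0.0653 and was no longer called.

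HMGCS1 (chr5:43287470-43313512, on the minus strand) makes HMG-CoA. Its level at 4 h was 224 and 234 TPM under 5G6, 139 and 88.8 under 6D7 and 28.7 and 56.1 under 7F8, against 38.7 and 59.3 TPM in DMSO. The 5G6 libraries agreed closely and were the highest of that hour. At 48 h the values were 341 and 267 TPM under 5G6, 323 and 245 under 6D7 and 143 and 26.0 under 7F8, against 43.4 and 34.2 TPM in DMSO. Neither 5G6 nor 6D7 overlapped DMSO, and 7F8 had its second replicate below both DMSO libraries. The log2 fold change at 48 h was 2.94 ± 0.59 under 5G6 (adjusted p = 0.025), 2.84 ± 0.59 under 6D7 (adjusted p = 0.0129) and 0.66 ± 0.59 under 7F8 (adjusted p = 0.535).

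MVK (chr12:109573461-109598125, on the plus strand) adds the first phosphate. After 4 h MVK had 66.3 and 38.7 TPM under 5G6, 37.7 and 22.4 under 6D7 and 11.97 and 13.04 under 7F8, against 12.8 and 14.8 TPM in DMSO. After 48 h MVK had 64.8 and 41.9 TPM under 5G6, 58.8 and 54.2 under 6D7 and 28.4 and 11.4 under 7F8, against 12.9 and 13.9 TPM in DMSO. The 5G6 and 6D7 libraries were above DMSO at both hours, and MVK was the weakest of the 8 genes in every DMSO library. Its log2 fold change at 48 h was 1.89 ± 0.39 under 5G6 (adjusted p = 0.0265) and 2.00 ± 0.39 under 6D7 (adjusted p = 0.00998, and 0.0515 after median-of-ratios scaling, at 1.67).

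PMVK (chr1:154924732-154942689, on the minus strand) adds the next phosphate and did not follow its neighbours in the pathway. PMVK had at 4 h 77.5 and 69.4 TPM under 5G6, 68.9 and 77.0 under 6D7 and 55.3 and 63.5 under 7F8, against 60.8 and 77.5 TPM in DMSO. PMVK had at 48 h 47.9 and 46.6 TPM under 5G6, 87.6 and 55.9 under 6D7 and 31.5 and 36.9 under 7F8, against 55.5 and 57.8 TPM in DMSO. Both 5G6 and both 7F8 libraries of 48 h were below both DMSO libraries, as were those of 27.9 percent (5G6) and 41.1 percent (7F8) of tested genes, and the 6D7 libraries overlapped them. The log2 differences at 48 h were -0.26 (95% interval -0.73 to 0.21) under 5G6, 0.30 (-0.17 to 0.77) under 6D7 and -0.72 (-1.19 to -0.25) under 7F8, with limma adjusted p of 0.595, 0.388 and 0.0611. The 6D7 value took the other sign after median-of-ratios scaling, at -0.032.

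MVD (chr16:88651935-88663153, on the minus strand) completes the building block and had the largest log2 fold change of the 8 with each compound at 48 h. The 4 h libraries held MVD at 160.5 and 89.9 TPM under 5G6, 69.3 and 51.1 under 6D7 and 29.8 and 41.6 under 7F8, against 20.3 and 31.5 TPM in DMSO. The 48 h libraries held MVD at 346 and 208 TPM under 5G6, 269 and 203 under 6D7 and 143 and 39.6 under 7F8, against 30.5 and 25.7 TPM in DMSO. All compound libraries of 48 h were above both DMSO libraries. The log2 fold change at 48 h was 3.22 ± 0.50 under 5G6 (adjusted p = 0.00991), 3.02 ± 0.50 under 6D7 (adjusted p = 0.00519) and 1.40 ± 0.50 under 7F8 (adjusted p = 0.106).

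IDI1 (chr10:1039419-1056716, on the minus strand) isomerises the building block. After 4 h IDI1 stood at 211 and 129 TPM under 5G6, 98.7 and 75.4 under 6D7 and 32.7 and 90.0 under 7F8, against 40.3 and 52.3 TPM in DMSO. The 7F8 libraries of 4 h straddled DMSO. After 48 h IDI1 stood at 262 and 271 TPM under 5G6, 219 and 280.3 under 6D7 and 183 and 51.4 under 7F8, against 38.5 and 38.5 TPM in DMSO. All 6 compound libraries of 48 h exceeded DMSO, and those of 5G6 and 6D7 were higher than those of 7F8. The log2 fold change at 48 h was 2.76 ± 0.53 under 5G6 (adjusted p = 0.0205), 2.66 ± 0.53 under 6D7 (adjusted p = 0.0105) and 1.31 ± 0.53 under 7F8 (adjusted p = 0.146).

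FDPS (chr1:155308748-155320666, on the plus strand) makes farnesyl pyrophosphate and was the most abundant of the 8 per length in 15 of the 16 libraries. Levels of FDPS at 4 h were 346 and 222 TPM under 5G6, 218 and 182 under 6D7 and 142 and 159.9 under 7F8, against 137 and 167 TPM in DMSO. Levels of FDPS at 48 h were 1076 and 788 TPM under 5G6, 759.9 and 838 under 6D7 and 428 and 119 under 7F8, against 173 and 145 TPM in DMSO. The 5G6 and 6D7 libraries of 48 h were several times above DMSO, and the 7F8 pair had one library above and one below it. The log2 fold change at 48 h was 2.53 ± 0.44 under 5G6 (adjusted p = 0.0143), 2.33 ± 0.44 under 6D7 (adjusted p = 0.00895) and 0.51 ± 0.44 under 7F8 (adjusted p = 0.52).

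GGPS1 (chr1:235328438-235344532, on the plus strand) extends farnesyl to geranylgeranyl pyrophosphate. GGPS1 had at 4 h 15.5 and 16.9 TPM under 5G6, 15.4 and 21.7 under 6D7 and 12.1 and 23.5 under 7F8, against 15.0 and 17.9 TPM in DMSO. GGPS1 had at 48 h 20.4 and 25.7 TPM under 5G6, 23.6 and 32.9 under 6D7 and 21.4 and 24.6 under 7F8, against 15.3 and 18.9 TPM in DMSO. All 6 compound libraries of 48 h were above DMSO, by a smaller margin than for the called genes. The log2 differences at 48 h were 0.41 (95% interval -0.24 to 1.05) under 5G6, 0.68 (0.036 to 1.33) under 6D7 and 0.41 (-0.23 to 1.05) under 7F8, with limma adjusted p of 0.524, 0.149 and 0.431.

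**Figure D3:**
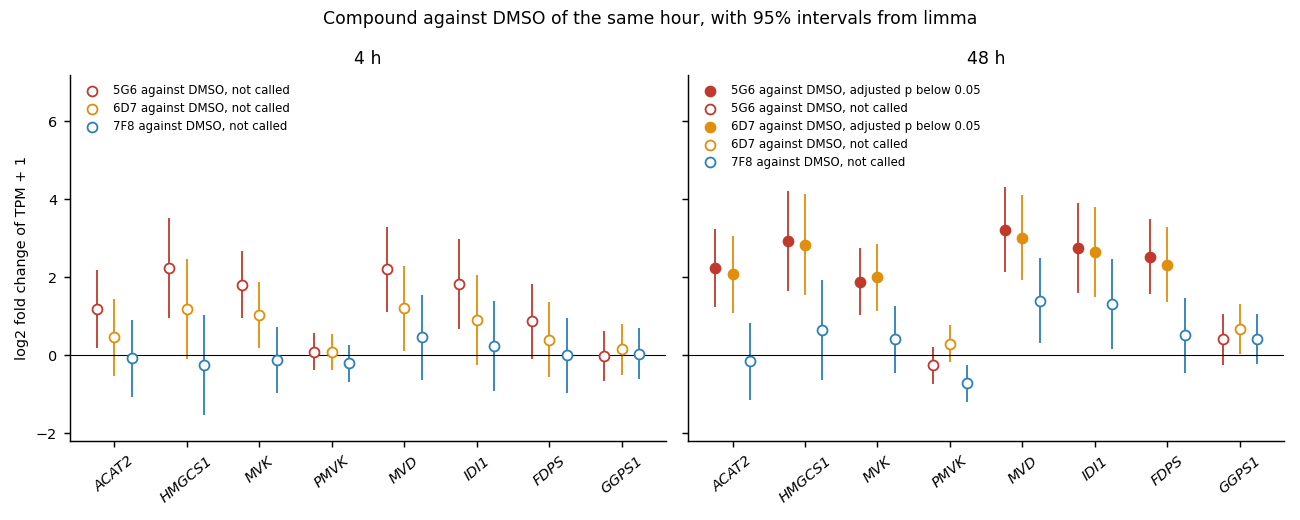
Log2 fold change of each gene against DMSO of the same hour (y axis, log2 of TPM + 1) with 95% intervals from the limma fit, for each gene on the x axis, by compound, at 4 h and 48 h, with filled symbols for called values. At 48 h the 5G6 and 6D7 values of 6 genes lie between 1.89 and 3.22, while PMVK and GGPS1 lie between -0.26 and 0.68.

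At 4 h the largest differences from DMSO were under 5G6. Its log2 differences were 2.23 for HMGCS1, 2.20 for MVD, 1.82 for IDI1, 1.81 for MVK, 1.18 for ACAT2 and 0.87 for FDPS. For 6D7 the same genes had 1.20, 1.20, 0.89, 1.03, 0.46 and 0.40 in that order. For 7F8 the 8 values ran from -0.25 (HMGCS1) to 0.46 (MVD). No gene of the 8 was called by limma in these 3 comparisons: the adjusted p under 5G6 ran from 0.264 for MVK to 1, and all were 1 under 6D7 and 7F8. At an unadjusted p below 0.05 there were 5 of 8 under 5G6 (3.91 percent of tested genes), 2 under 6D7 (1.18 percent) and 0 under 7F8 (4.86 percent). The test called 0.0196 percent of all genes under 5G6 and 0 percent under 6D7 and 7F8, so few genes of any kind passed at this hour. Both compound libraries lay above both DMSO libraries for 6 of 8 genes under 5G6, against 26.9 percent of tested genes. The same held for 6 of 8 under 6D7, against 16.1 percent, and for 0 of 8 under 7F8, against 9.98 percent. At 48 h it held for 7 of 8 under 5G6 (19.4 percent of tested genes), 7 of 8 under 6D7 (45.2 percent) and 3 of 8 under 7F8 (15.1 percent).

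The calls at 48 h rested on pairs of libraries. Except after median-of-ratios scaling, no share of all tested genes is given below, so a general change in calls cannot be told apart. Without DMSO replicate 1, DMSO replicate 2 or 5G6 replicate 1, none of the 8 was called under 5G6, and without 5G6 replicate 2 only MVD was. The log2 fold changes themselves moved less: across these omissions MVD ran 2.85 to 3.58, HMGCS1 2.76 to 3.11, FDPS 2.31 to 2.76 and MVK 1.58 to 2.20. Under 6D7, leaving out any DMSO or 6D7 library of 48 h lowered the number called, and MVD stayed called each time. For 6D7, MVD ran 2.82 to 3.22, HMGCS1 2.64 to 3.04, FDPS 2.20 to 2.46 and MVK 1.94 to 2.06. With the libraries of 48 h fitted alone, no gene of the 8 was called under 5G6 and 2 were under 6D7. Without the filter on low values, 2 were called under 5G6. After median-of-ratios scaling 6 were called under 5G6 (2.44 percent of tested genes called higher) and 4 under 6D7 (3.05 percent), and from read coverage with that scaling 5 and 3.

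The 7F8 libraries of 48 h differed from each other more than those of any other group for 6 of the 8 genes. Replicate 1 was 5.50 times replicate 2 for HMGCS1, 3.76 times for ACAT2, 3.61 for FDPS, 3.61 for MVD, 3.56 for IDI1 and 2.50 for MVK. For PMVK and GGPS1 it was 0.852 and 0.868 times. On TPM + 1, replicate 1 was at least 2 times replicate 2 for 6 of the 8 genes and for 11 of 12 genes of the later sterol branch. The same held for 3.07 percent of all tested genes. No pair of replicates in another group was 2-fold apart for any of the 8, except IDI1 in 7F8 at 4 h. Without 7F8 replicate 2, the log2 fold changes against DMSO were 1.87 for HMGCS1, 2.31 for MVD, 2.22 for IDI1 and 1.43 for FDPS. Without 7F8 replicate 1 they were -0.55, 0.48, 0.41 and -0.41 in that order.

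The TPM of the 8 genes was also added up in each library. At 4 h the sum was 1203 and 866 TPM under 5G6, 702 and 563 under 6D7 and 341 and 487 under 7F8, against 356 and 460.4 TPM in DMSO. At 48 h it was 2331 and 1798 TPM under 5G6, 1863 and 1878 under 6D7 and 1036 and 324 under 7F8, against 405 and 364 TPM in DMSO. The DMSO sums of both hours overlapped, and the 5G6 and 6D7 sums of 48 h were the highest of the study. No gene of the 8 differed between DMSO at 48 h and at 4 h by the test, with 0 percent of tested genes called. At an unadjusted p below 0.05 there were 0 of 8, against 1.64 percent of tested genes, and the log2 differences ran from -0.31 (HMGCS1) to 0.14 (MVD).

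Between compounds, 5G6 and 6D7 gave close values at 48 h. The log2 difference of 5G6 minus 6D7 was 0.16 for ACAT2 (95% interval -0.83 to 1.15), 0.10 for HMGCS1 (-1.19 to 1.39) and 0.20 for MVD (-0.89 to 1.29). It was 0.10 for IDI1 (-1.05 to 1.26), 0.21 for FDPS (-0.76 to 1.17) and -0.11 for MVK (-0.96 to 0.74). The intervals of HMGCS1 and IDI1 reach past 2-fold in both directions, and those of the other 4 past 1.5-fold in both. PMVK had the largest difference of the 8, -0.56 (-1.03 to -0.087), at a limma adjusted p of 0.221. No gene of the 8 was called in this pair, against 0.0196 percent of all tested genes, and 1 had an unadjusted p below 0.05, against 19.3 percent. After median-of-ratios scaling the median difference of the 8 was 0.53 in place of 0.10, and the values of MVK and GGPS1 took the other sign. At 4 h the differences of 5G6 minus 6D7 ran from -0.17 (GGPS1) to 1.04 (HMGCS1), with no call, no unadjusted p below 0.05 (1.16 percent of tested genes), and 5G6 above 6D7 without overlap in 6 of 8 genes, against 19.7 percent of tested genes.

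Set against 7F8 at 48 h, 6D7 was called higher for 6 of the 8 genes on the TPM scale, where 16.3 percent of all tested genes were also called higher. They were ACAT2 at 2.23 ± 0.46 log2 (adjusted p = 0.0146), HMGCS1 at 2.18, FDPS at 1.82, MVD at 1.62, MVK at 1.59 and PMVK at 1.02 ± 0.22 (adjusted p = 0.0158). After median-of-ratios scaling the same comparison called 0 of the 8, with ACAT2 at 1.64 (adjusted p = 0.212) and PMVK at 0.43 (adjusted p = 0.554). It also called 0 on the FPKM scale, on TPM without mitochondrial genes and on read coverage. Leaving out any 6D7 or 7F8 library of 48 h lowered the number called on the TPM scale. The difference then ran 1.31 to 3.15 for ACAT2, 0.97 to 3.39 for HMGCS1 and 0.90 to 2.74 for FDPS. It ran 0.71 to 2.53 for MVD, 0.97 to 2.22 for MVK and 0.70 to 1.34 for PMVK.

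Set against 7F8 at 48 h, 5G6 was called for 0 of the 8, against 0.34 percent of tested genes, while 6 had an unadjusted p below 0.05, against 9.07 percent. The smallest limma adjusted p was 0.054, for ACAT2 at 2.39 (1.40 to 3.38). With 1 library left out at a time, the difference ran 1.47 to 3.31 for ACAT2, 1.07 to 3.49 for HMGCS1 and 0.91 to 2.73 for MVD. It ran 1.10 to 2.95 for FDPS, 0.85 to 2.11 for MVK and 0.54 to 2.35 for IDI1. At 4 h 5G6 minus 7F8 was 2.48 for HMGCS1 (1.19 to 3.77) and 1.94 for MVK (1.09 to 2.79), the largest of the 8, with adjusted p of 0.216 and 0.167. That comparison called 0 of the 8 and 0.0131 percent of tested genes. At 4 h 6D7 minus 7F8 reached 1.44 for HMGCS1 (0.16 to 2.73), again with no call and with 2 of 8 at an unadjusted p below 0.05, against 6.12 percent of tested genes.

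The effect of a compound at 48 h minus its effect at 4 h was tested in the same fit, and no gene of the 8 was called for any compound, with 0 percent (5G6), 0.0393 percent (6D7) and 0.00654 percent (7F8) of tested genes called. FDPS had the largest log2 difference under 5G6, 1.66 (0.30 to 3.02, adjusted p = 0.583), and under 6D7, 1.93 (0.57 to 3.29, adjusted p = 0.332). Under 5G6 the difference for MVK was 0.077 (-1.13 to 1.28) and for HMGCS1 0.70 (-1.11 to 2.52). At an unadjusted p below 0.05 there were 1 of 8 under 5G6 (7.52 percent of tested genes), 4 under 6D7 (10.9 percent) and 0 under 7F8 (8.4 percent). FDPS stood at 346 and 222 TPM at 4 h and 1076 and 788 TPM at 48 h under 5G6, and MVK at 66.3 and 38.7 TPM and 64.8 and 41.9 TPM.

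The ratio of each gene to GGPS1 within a library does not depend on how libraries are scaled to each other. Under 5G6 at 48 h the log2 ratio of MVD to GGPS1 was 4.09 and 3.02, against 1.00 and 0.44 in DMSO. Under 6D7 at 48 h it was 3.51 and 2.63, and under 7F8 2.74 and 0.68. Relative to the DMSO mean of that hour, the mean ratio under 5G6 was higher by 2.84 for MVD, 2.54 for HMGCS1, 2.37 for IDI1, 2.11 for FDPS, 1.84 for ACAT2 and 1.54 for MVK. Under 6D7 it was higher by 2.35, 2.16, 1.97, 1.62, 1.39 and 1.37 in the same order. For these 6 genes both libraries of each compound lay above both DMSO libraries, as they did for the ratio to GGPS1 of 8.17 percent (5G6) and 9 percent (6D7) of tested genes. The ratio of PMVK to GGPS1 differed from DMSO by -0.69 under 5G6, -0.41 under 6D7 and -1.16 under 7F8. A ratio shows unequal change of its members, and these are descriptions with 2 libraries a group.

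**Figure D4:**
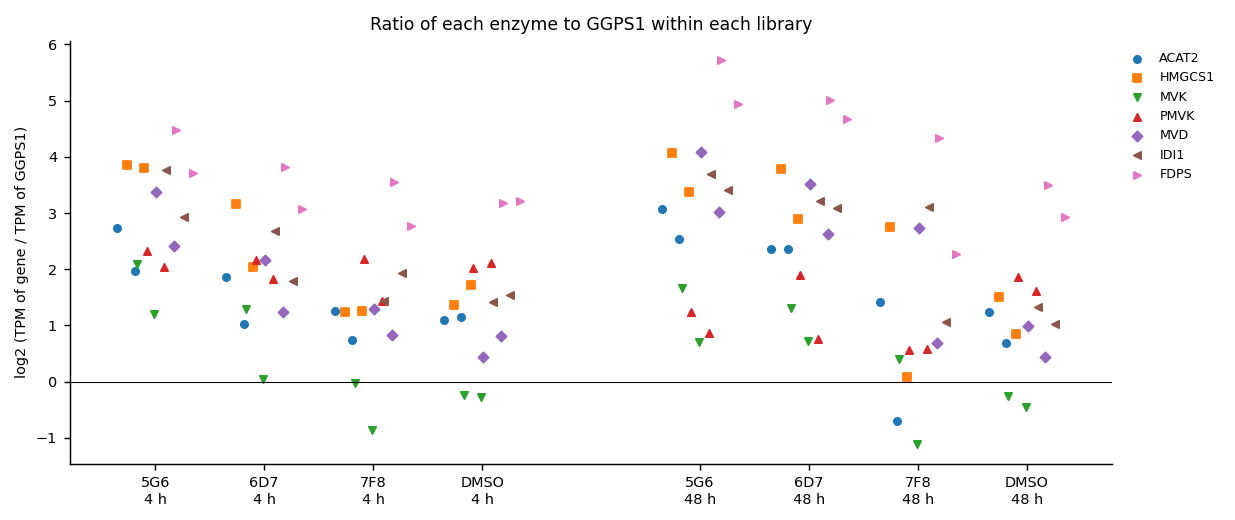
Log2 ratio of the TPM of each gene to that of GGPS1 in the same library (y axis), by compound and hour (x axis), each point 1 library. At 48 h the 6 called genes have ratios above DMSO in the 5G6 and 6D7 libraries, and PMVK does not, while at 4 h the 6D7 libraries overlap DMSO for ACAT2 and FDPS.

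The order of levels within the pathway was not the same in all groups. In all 4 DMSO libraries FDPS was the most abundant of the 8 in TPM and PMVK the next, while MVK was the lowest and GGPS1 the one above it. Under 5G6 and 6D7 at 48 h PMVK ranked sixth or lower in each of the 4 libraries, and GGPS1 was the lowest in all 4. As a description over the 16 libraries, log2(TPM + 1) of HMGCS1 had a Pearson correlation of 0.954 with the mean of the other 7 genes, and the values for ACAT2, MVK, MVD, IDI1 and FDPS were 0.946, 0.928, 0.934, 0.946 and 0.905. The correlation was 0.41 for GGPS1 and 0.0079 for PMVK. The libraries share treatments, so these values mostly compare groups.

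Most enzymes of the later sterol branch, from squalene synthase to cholesterol, were called as well. Of its 12 listed enzymes, 10 were called higher under 5G6 at 48 h, against 1.87 percent of tested genes. Under 6D7 11 were, against 10.9 percent. The median log2 fold change was 2.12 under 5G6 and 1.89 under 6D7, and the lowest of the 12 was 1.57 and 1.34. After median-of-ratios scaling 9 were called higher under 5G6, against 2.44 percent of tested genes, and 6 under 6D7, against 3.05 percent. FDFT1, which commits farnesyl pyrophosphate to sterols, stood at 538 and 437 TPM under 5G6 and 365 and 466 under 6D7, against 94.1 and 114 TPM in DMSO. After that scaling its 6D7 value was 1.65 (adjusted p = 0.0539), in place of 1.99 (adjusted p = 0.0127). MSMO1, a methylsterol oxidase, had the largest log2 fold change of the branch, 3.20 under 5G6 (adjusted p = 0.0098) and 3.10 under 6D7 (adjusted p = 0.00451). Under 7F8 1 of the 12 was called higher, against 2.08 percent of tested genes, the cyclase LSS at 1.65 (adjusted p = 0.0257), with 109 and 44.1 TPM against 20.5 and 22.4 TPM in DMSO. None of the 12 was called at 4 h, and 10 of them had an unadjusted p below 0.05 under 5G6, against 3.91 percent of tested genes.

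Of 17 enzymes that use isoprenoids for other products, those called numbered 0 under 5G6 at 48 h (3.38 percent of tested genes), 1 under 6D7 (12.4 percent) and 2 under 7F8 (8.49 percent). The list held protein prenyltransferases, their processing enzymes and the enzymes of dolichol, ubiquinone, menaquinone and tRNA isopentenylation. Under 5G6 2 of them had an unadjusted p below 0.05, against 18.1 percent of tested genes, and the median log2 fold change was -0.25. The 6D7 call was DHDDS, a subunit of the dolichol-making prenyltransferase, at 1.56 (adjusted p = 0.0294), with 58.1 and 16.1 TPM against 10.1 and 9.48 TPM in DMSO, and 1.24 (adjusted p = 0.125) after median-of-ratios scaling. Both 7F8 calls were lower, as were 6.4 percent of tested genes. They were the farnesyltransferase subunit FNTB at -0.72 and PDSS1, which makes the ubiquinone side chain, at -1.14, and neither was called after median-of-ratios scaling (-0.48 and -0.93, adjusted p = 0.201 and 0.0673). That scaling called PDSS1 lower under 5G6 (-1.12, adjusted p = 0.0498) and 6D7 (-1.20, adjusted p = 0.0322), where it was not called before. The branches were not tested against each other.

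Upstream, ACSS2, which makes cytosolic acetyl-CoA from acetate, stood at 177 and 251 TPM under 5G6, 91.8 and 219 under 6D7 and 48.0 and 26.3 under 7F8 at 48 h, against 11.4 and 15.0 TPM in DMSO. Its log2 fold change was 3.91 under 5G6 (adjusted p = 0.00522) and 3.34 under 6D7 (adjusted p = 0.00398). ACLY, which makes acetyl-CoA from citrate, had 0.29 and 0.20 and was not called. The citrate carrier SLC25A1 rose by 0.92 under 5G6 and 1.07 under 6D7 (adjusted p = 0.025 and 0.00631). After median-of-ratios scaling its 6D7 value was 0.73 (adjusted p = 0.102) and was no longer called. ACAT1, the mitochondrial thiolase, was not called, at -0.23 and 0.37. The paralog IDI2 did not pass the filter, with at most 0.226 TPM in any library. ACSS2, ACLY, SLC25A1 and ACAT1 were not called under 7F8.

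Of 7 regulators of the SREBP system, INSIG1, which holds SREBPs in the endoplasmic reticulum and is itself an SREBP target, rose the most. It stood at 366 and 309.7 TPM under 5G6, 434 and 293 under 6D7 and 137 and 39.4 under 7F8 at 48 h, against 26.6 and 22.7 TPM in DMSO. Its log2 fold change was 3.72 under 5G6 (adjusted p = 0.00991) and 3.81 under 6D7 (adjusted p = 0.00378). SREBF2, the gene of SREBP-2, had 1.02 under 5G6 (adjusted p = 0.0994) and 1.13 under 6D7 (adjusted p = 0.0353, and 0.79 with an adjusted p of 0.19 after median-of-ratios scaling). INSIG2 was called under 6D7 at 1.79 (adjusted p = 0.0433, and 1.46 with an adjusted p of 0.0819 after that scaling). SREBF1, SCAP, MBTPS1 and MBTPS2 were not called with any compound at 48 h. Of the 7 regulators, 1 was called higher under 5G6, against 1.87 percent of tested genes, and 3 under 6D7, against 10.9 percent. Under 7F8 0 of the 7 were called, against 8.49 percent of tested genes, a share too low for 0 of 7 to set them apart.

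**Figure D5:**
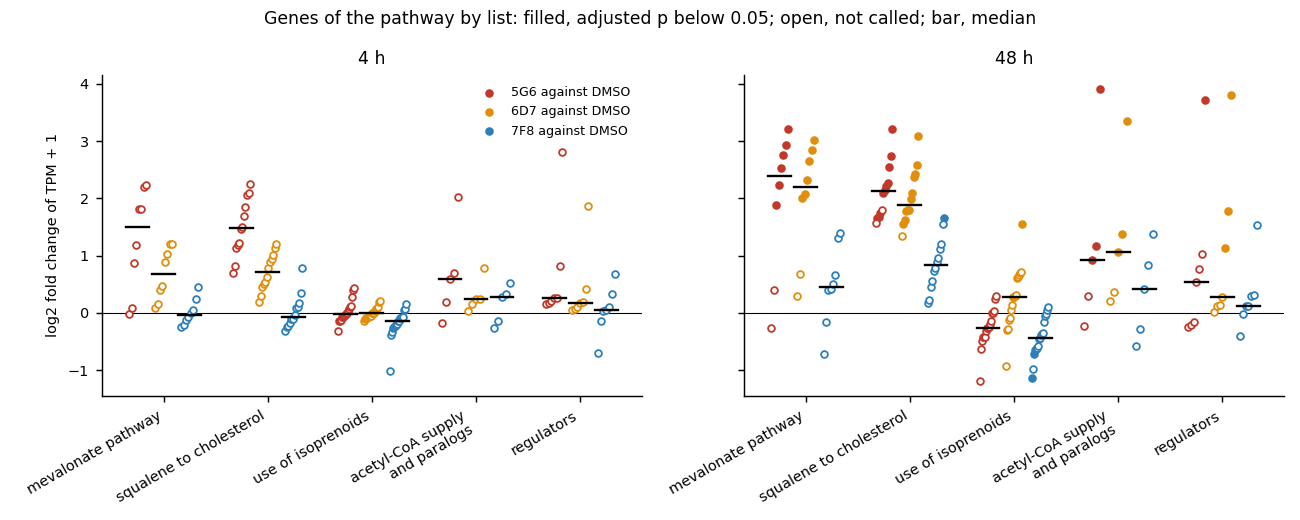
Log2 fold change against DMSO (y axis, log2 of TPM + 1) of every tested gene of the 8 enzymes and the 4 other lists (x axis) at 4 h and 48 h, by compound, with the median of each list as a bar and filled symbols for called genes. At 48 h under 5G6 and 6D7 the later sterol branch centres at 2.12 and 1.89, and the enzymes that use isoprenoids at -0.25 and 0.29.

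Among the 10 genes whose log2(TPM + 1) followed the mean of the 8 most closely over the 16 libraries were ERG28 (r = 0.969), INSIG1 (0.967), SC5D (0.959), CYP51A1 (0.955), PCYT2 (0.952), SQLE (0.950), EBP (0.949), MSMO1 (0.948) and ABHD3 (0.947). SC5D, CYP51A1, SQLE, EBP and MSMO1 belong to the list of the later sterol branch. After median-of-ratios scaling INSIG1 led at 0.966, and FDFT1 and NSDHL entered the first 10.

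Several of the genes lie close to or over another gene, and the strand setting of the counting was not given, so reads in an overlap cannot be told apart. MVK shares 120 bases with MMAB, an enzyme of vitamin B12 metabolism on the opposite strand, whose annotated start is 119 bases from that of MVK. MMAB rose at 48 h under 5G6 (49.6 and 33.3 TPM, log2 1.43, adjusted p = 0.0448) and 6D7 (38.5 and 41.1 TPM, 1.40, 0.0229), against 15.2 and 13.8 TPM in DMSO. After median-of-ratios scaling neither was called, at 1.51 (adjusted p = 0.0613) and 1.07 (adjusted p = 0.144). FDPS overlaps RUSC1-AS1 by 3813 bases, and that RNA stood at 27.2 and 27.5 TPM under 5G6 and 20.7 and 24.4 under 6D7, against 4.08 and 5.87 TPM in DMSO. SNAI3-AS1, whose start is 220 bases from that of MVD on the other strand, stood at 16.6 and 16.3 TPM under 5G6 and 11.3 and 15.4 under 6D7, against 1.15 and 2.08 TPM in DMSO. Both were called higher with both compounds. ARID4B, 214 bases from GGPS1 by their starts, WDR37, 120 bases from IDI1, and IDI2-AS1, which overlaps IDI1 by 4783 bases, were not called.

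At the ACAT2 locus the neighbour took another course. SOD2, the mitochondrial superoxide dismutase on the opposite strand, overlaps ACAT2 by 573 bases. At 48 h it stood at 759 and 695 TPM under 5G6, 1562 and 752 under 6D7 and 2239.7 and 1594 under 7F8, against 158 and 131 TPM in DMSO. SOD2 was therefore highest in the 7F8 libraries, where ACAT2 had 57.3 and 15.2 TPM. Its log2 fold change was 2.33, 2.91 and 3.71 under 5G6, 6D7 and 7F8, each called. TCP1, a chaperonin subunit that overlaps the other end of ACAT2 by 615 bases, was not called.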

How the data were processed

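PolyA RNA of A549 CD63-Nluc cells was sequenced. Per the labels' protocols, RNA came from TRIzol extraction with DNase I treatment, and a NEBNext Ultra kit was used for the libraries. The submitters' processing notes name STAR 2.6.1a, featureCounts 1.6.3, StringTie 2.0 and GRCh38, without their roles, and the strand setting is not given in the sources used here. TPM values, which add up to the same total in each library, were deposited by the authors, mitochondrial genes included. FPKM values in the deposited tables are scaled by length and reads. Coverage is, per the file headers, the mean read depth over a gene and is not scaled between libraries. The aligned bases, 6.10 to 8.86 gigabases in a library, were worked out from FPKM and coverage, and no count test was run.

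TPM was added over places of the same gene name. The fit used log2(TPM + 1) of the 15285 genes that reached a TPM of 1 in 2 libraries or more. It was made with limma 3.58.1 (R 4.3.3) for 8 groups, leaving 8 residual degrees of freedom, with a trend of variance on mean and a median of 3.94 prior degrees of freedom. P-values are two-sided and were adjusted by Benjamini-Hochberg over all tested genes within each of 16 comparisons, with calls below 0.05. Compounds were compared with DMSO of their hour and with each other, and effects and DMSO were compared between hours. Python 3.11.15 with pandas 2.3.3, numpy 2.4.6 and matplotlib 3.10.9 handled tables and figures. The procedure was also run on simulated data with independent noise for each gene and library. That simulation held no deviations shared by same-numbered libraries and no scaling shift between libraries, so it does not speak to either.

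Alternatives were FPKM, a pseudocount of 0.1, the fit without the filter, scaling by median of ratios (size factors from 0.824 to 1.39), TPM without mitochondrially encoded genes, no trend, the libraries of 1 hour alone, a replicate block and leaving out each library. Read coverage was added because FPKM over coverage, divided by its median in the library, varied up to 1.21 times between libraries for IDI1 and 1.18 times for MVK. The 8 genes, the other lists and the tests were chosen with earlier results of these data known. All 8 genes and listed genes could be named. Neighbours were genes that overlap a member or start within 1000 bases of it on the other strand. The genes most alike over the libraries were the first 10 by Pearson correlation with the mean of the 8. Some genes are not reported here. Promoter letters came from RefSeq (GRCh38.p14), which matched 7 of the 8 genes.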

Additional observations from a re-analysis of the deposited data

How the results depend on the processing

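The counts of the 8 genes called at 48 h depended on the libraries and the fit. In this section no share of all tested genes stands beside a count, so the counts do not compare the 8 with other genes. With the libraries of 48 h fitted alone, 0 of the 8 were called for 5G6 against DMSO, 2 for 6D7 against DMSO and 0 for 6D7 against 7F8, in place of 6 each. Without the filter on low values, 2 were called for 5G6 against DMSO. The 6 calls of 6D7 against 7F8 became 0 on FPKM, under median-of-ratios scaling, on TPM without mitochondrially encoded genes and from read coverage, and coverage gave 3 for 6D7 against DMSO. Leaving out 1 library at a time gave 0 to 1 calls for 5G6 against DMSO, 1 to 5 for 6D7 against DMSO, 0 to 4 for 7F8 against DMSO, 0 to 1 for 5G6 against 6D7, 0 to 4 for 5G6 against 7F8 and 1 to 5 for 6D7 against 7F8. These omissions leave a group with 1 library, which the fit assumes to vary like the other groups. The cause was not tested. The other counts, with a pseudocount of 0.1 and without the variance trend included, stayed within 1.5 times, and all counts of 0 at 4 h and between hours stayed 0 under every alternative run.

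A replicate block gave 2 calls for 7F8 against DMSO at 48 h and 3 for 5G6 against 7F8 at 48 h, where there were 0 without it. With median-of-ratios scaling the replicate block gave 2 for 7F8 against DMSO and 0 for 6D7 against 7F8. The other counts under the block were within 1.5 times. Deviations of same-numbered libraries correlated at 0.0576 to 0.630 over 28 pairs of groups, with a median of 0.328 and 25 of them over 0.1. Same-numbered libraries thus tended to deviate together in all 28 pairs of groups, though weakly in some. The labels name no shared culture or day, so the block was kept as an alternative, and the counts without it do not allow for these shared deviations.

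No value of the 8 genes that was called changed its sign. On the FPKM scale the log2 difference took the other sign for PMVK (-0.037) in 5G6 against DMSO at 4 h, FDPS (0.0095) in 7F8 against DMSO at 4 h, PMVK (-0.088) in 6D7 against DMSO at 48 h. Added to these were PMVK (-0.066) in 5G6 against 6D7 at 4 h, MVK (0.28) and GGPS1 (0.11) in 5G6 against 6D7 at 48 h, GGPS1 (-0.20) in 6D7 against 7F8 at 48 h. Further cases were PMVK (-0.12) in 6D7 effect at 48 h minus 4 h, ACAT2 (0.013) in 7F8 effect at 48 h minus 4 h, GGPS1 (-0.0072) in DMSO at 48 h against 4 h. Under median-of-ratios scaling the log2 difference took the other sign for PMVK (-0.076) in 5G6 against DMSO at 4 h, ACAT2 (0.030) and FDPS (0.11) in 7F8 against DMSO at 4 h, PMVK (-0.032) in 6D7 against DMSO at 48 h. Also turned were ACAT2 (0.092) in 7F8 against DMSO at 48 h, PMVK (-0.11) in 5G6 against 6D7 at 4 h, GGPS1 (-0.050) in 6D7 against 7F8 at 4 h. Others were MVK (0.31) and GGPS1 (0.14) in 5G6 against 6D7 at 48 h, GGPS1 (-0.30) in 6D7 against 7F8 at 48 h, PMVK (-0.063) in 6D7 effect at 48 h minus 4 h. Added to these were ACAT2 (0.062) in 7F8 effect at 48 h minus 4 h, FDPS (-0.058) and GGPS1 (-0.069) in DMSO at 48 h against 4 h. On TPM without mitochondrially encoded genes the log2 difference took the other sign for PMVK (-0.11) in 6D7 against DMSO at 48 h, MVK (0.30) and GGPS1 (0.13) in 5G6 against 6D7 at 48 h, GGPS1 (-0.17) in 6D7 against 7F8 at 48 h. Further cases were PMVK (-0.16) in 6D7 effect at 48 h minus 4 h, MVK (0.037) in DMSO at 48 h against 4 h. From read coverage with median-of-ratios scaling, an alternative added after seeing the data, the log2 difference took the other sign for PMVK (-0.072) in 5G6 against DMSO at 4 h, ACAT2 (0.054), MVK (0.026) and FDPS (0.081) in 7F8 against DMSO at 4 h, PMVK (-0.017) in 6D7 against DMSO at 48 h. Also turned were ACAT2 (0.15) in 7F8 against DMSO at 48 h, PMVK (-0.11) in 5G6 against 6D7 at 4 h, GGPS1 (-0.051) in 6D7 against 7F8 at 4 h. Others were MVK (0.37) and GGPS1 (0.13) in 5G6 against 6D7 at 48 h, GGPS1 (-0.30) in 6D7 against 7F8 at 48 h, PMVK (-0.050) in 6D7 effect at 48 h minus 4 h. Added to these were ACAT2 (0.093) in 7F8 effect at 48 h minus 4 h, FDPS (-0.084) and GGPS1 (-0.072) in DMSO at 48 h against 4 h. The replicate block with median-of-ratios scaling gave the same values as that scaling alone. Leaving out 1 library at a time gave log2 differences of both signs for the following, and no value of changed sign was called. The ranges over the omitted libraries are in parentheses. Both signs occurred for PMVK (-0.079 to 0.27) and GGPS1 (-0.14 to 0.10) in 5G6 against DMSO at 4 h, PMVK (-0.088 to 0.26) and GGPS1 (-0.082 to 0.38) in 6D7 against DMSO at 4 h, GGPS1 (-0.40 to 0.49), ACAT2 (-0.30 to 0.14), HMGCS1 (-0.72 to 0.22), FDPS (-0.15 to 0.14) and IDI1 (-0.48 to 0.96) in 7F8 against DMSO at 4 h. Further cases were ACAT2 (-1.001 to 0.84), GGPS1 (-0.085 to 0.81), HMGCS1 (-0.30 to 2.11), MVK (-0.091 to 1.16) and FDPS (-0.41 to 1.44) in 7F8 effect at 48 h minus 4 h, MVD (-0.17 to 0.45), FDPS (-0.078 to 0.21), GGPS1 (-0.10 to 0.20), ACAT2 (-0.25 to 0.055) and MVK (-0.13 to 0.061) in DMSO at 48 h against 4 h, MVK (-0.30 to 0.46) in 5G6 effect at 48 h minus 4 h. Also turned were PMVK (-0.070 to 0.088) and GGPS1 (-0.40 to 0.062) in 5G6 against 6D7 at 4 h, HMGCS1 (-0.10 to 0.30), MVD (-0.17 to 0.56), FDPS (-0.019 to 0.43), MVK (-0.42 to 0.20), ACAT2 (-0.070 to 0.39) and IDI1 (-0.071 to 0.28) in 5G6 against 6D7 at 48 h, GGPS1 (-0.16 to 0.16) in 5G6 against 7F8 at 48 h. Others were GGPS1 (-0.34 to 0.56) and IDI1 (-0.061 to 1.37) in 6D7 against 7F8 at 4 h, PMVK (-0.018 to 0.62) in 6D7 against DMSO at 48 h, PMVK (-0.10 to 0.53) in 6D7 effect at 48 h minus 4 h. Added to these were GGPS1 (-0.51 to 0.38) in 5G6 against 7F8 at 4 h, HMGCS1 (-0.55 to 1.87), MVK (-0.22 to 1.03), FDPS (-0.41 to 1.43) and ACAT2 (-1.08 to 0.76) in 7F8 against DMSO at 48 h.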

Other observations

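The 7F8 libraries of 48 h differed from each other in sterol genes more than in most others. The ratio of replicate 1 to replicate 2 was taken on TPM + 1. Its median was 3.53 over the 8 mevalonate enzymes and 2.86 over the 12 enzymes of the later sterol branch. It was 0.887 over the 17 enzymes that use isoprenoids and 0.913 over all tested genes. LSS had 109 and 44.1 TPM in 7F8 replicates 1 and 2, against 20.5 and 22.4 TPM in DMSO. MSMO1 had 220.3 and 56.6 TPM in the same libraries, against 33.8 and 41.6 TPM in DMSO.

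MVK, PMVK and MVD together made up 19.7 and 16.5 percent of the summed TPM of the 8 genes under 5G6 at 48 h, 22.3 and 16.7 percent under 6D7 and 19.6 and 27.1 percent under 7F8, against 24.4 and 26.7 percent in DMSO. The 5G6 and 6D7 libraries all held a smaller share than both DMSO libraries, and the 7F8 libraries lay on either side of them. The pooled share hides unequal moves of MVK, PMVK and MVD at 48 h. MVD stood at 346 and 208 TPM under 5G6 and 269 and 203 under 6D7, against 30.5 and 25.7 TPM in DMSO. MVK had 64.8 and 41.9 and 58.8 and 54.2 TPM in that order, against 12.9 and 13.9. PMVK had 47.9 and 46.6 and 87.6 and 55.9 TPM, against 55.5 and 57.8. The shares of single genes and of other gene sets were not compared.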
